A study of Mus musculus with 20 samples.

Results

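Mice exposed to cold and mice infused with CL316,243 (CL) were compared directly in the stromal cells of interscapular brown adipose tissue (iBAT), to ask what each stimulus does that the other does not. The comparison rests on 4 of the 20 single-cell RNA-seq libraries of the series, namely the 2 COLD and the 2 CL libraries of the fraction that lacks immune lineage markers (Lin-). Cells with under 10% mitochondrial counts, a total under 15000 and at least 500 genes were kept, which left 32015 of 39240 barcodes. Stromal cells were those with a sum of Pdgfra, Col1a1 and Dcn of at least 5 and a sum of Pecam1, Cdh5 and Ptprc under 1, and 20364 of the kept cells passed. The mice of this comparison were male C57BL/6J of 8 to 14 weeks. The COLD mice spent 4 days at 6 °C, caged individually and without nesting material. The CL mice received 0.75 nmol per hour for 4 days from a subcutaneous osmotic pump. They were kept at 24 °C, as were the room temperature (RT) mice, which give the level from which each stimulus departs. The RT pools also enter the fit and share in its estimate of spread. The labels name no group with a pump that delivers vehicle, so drug and pump cannot be told apart, nor can the temperature and the caging of the COLD mice. Each library pooled 3 to 4 mice, and a group has 2 pools. A further pair of cold pools, set beside these without a test, came from female mice of the same age range, Adrb1 fl/fl with Pdgfra-CreER (KO) or without it (WT), the CreERT2 form in the study's methods, all given tamoxifen.

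Cold is sensed by the skin and reaches brown fat through sympathetic nerves, whose noradrenaline acts on all adrenergic receptors of the tissue and on every cell type that carries them. CL is a selective ligand of the β3 receptor, which is found mainly on adipocytes. Adipose stromal cells (ASCs) are the fibroblast-like cells of the tissue and include the precursors of new adipocytes, and they also make matrix, Wnt modulators, growth factors and chemokines. Interferons, which come mainly from immune cells, act on stromal cells through their receptors and STAT factors and switch on a common set of antiviral and antigen-presenting genes.

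The 6 C57 Lin- libraries held 2341 to 5770 stromal cells each, with summed totals of 3663263 to 23460968 corrected counts. Median counts per stromal cell were 2944 and 4709.7 in COLD, 2033 and 4051 in CL, and 4184 and 1573 in RT. In RT replicate 2, 72.0% of barcodes had 10% mitochondrial counts or more. In CL replicate 1 it was 12.8%, against 2.89% to 4.15% in the other COLD and CL libraries. Of its barcodes 66.4% were kept, against 90.4% to 90.9% in those. The chi-square between the 2 pools of a group, over its degrees of freedom, was 100.3 for CL, 50.8 for COLD and 60.2 for RT. It grows with the number of counts, which was lowest in RT replicate 2, so it does not rank the groups by spread. Between 39 and 139 cell barcodes were shared by any pair of these libraries, at most 1.57% of the smaller library. Pdgfra, the platelet-derived growth factor receptor that marks ASCs, lay at 299 and 313 CPM (counts scaled to a common library size with TMM) in COLD and at 274 and 349 CPM in CL. Col1a1 was at 2615 and 3171 CPM in COLD and 7513.5 and 6033 CPM in CL. Dcn was at 8883 and 11976 CPM in COLD and 7870 and 19794 CPM in CL. Neither passed between COLD and CL (adjusted p = 0.595 and 0.933, edgeR). The gate adds up these 3 genes, so it may pass cells more readily where Col1a1 is high. Ptprc, which encodes the leukocyte antigen CD45 and served as a gate gene, stayed at or under 1.33 CPM in all 6 libraries. The summed level of 12 immune markers was 43.3 and 37.3 CPM in COLD, 32.7 and 30.8 CPM in CL, and 31.3 and 32.3 CPM in RT, so the COLD pools were slightly higher. Cells with a Ptprc count of at least 1 were 1.28% and 2.49% of kept Lin- cells in COLD, 0.356% and 0.599% in CL, and 1.37% in each RT pool.

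In stromal cells, 59 of 14104 genes passed the threshold between COLD and CL (adjusted p under 0.05, edgeR's quasi-likelihood test), which is 0.418% of those tested, and 15.6% had an unadjusted p under 0.05. Of these, 24 were higher in COLD (0.17%) and 35 were higher in CL (0.248%). On the COLD side, 5 genes belong to the interferon list and 1 to the list of adrenergic and cAMP genes, and 18 are in none of the lists. Those on the CL side include a Wnt ligand, a Wnt modulator, an imprinted RNA and a collagen. Log2 differences ranged in size from 1.03 to 3.55 on the COLD side and from 0.99 to 4.07 on the CL side, with adjusted p between 0.0288 and 0.0476 by edgeR. With the replicate number as a block, which marks a shared experiment here, 401 genes passed, 179 of them higher in COLD, and all 59 were among them. Scaling by library totals alone moved the median of all genes from -0.01 to 0.17 (log2) and gave 160 genes higher in COLD and 127 higher in CL, among them 44 of the 59. The RT pools are part of this fit. In the COLD and CL libraries alone, 0 genes passed (smallest adjusted p = 0.144, edgeR), and 474 passed there with the replicate block. The count also depended on single libraries. Leaving out RT replicate 1, RT replicate 2, COLD replicate 1 or COLD replicate 2 left 0 genes (893 to 2111 at an unadjusted p under 0.05, edgeR). Leaving out CL replicate 1 gave 869 and leaving out CL replicate 2 gave 356, and all 59 were among each of these.

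On the COLD side stood Cxcl9, a chemokine induced by interferon gamma that attracts T cells through Cxcr3. Its level was 684 and 868 CPM in COLD, 131 and 105 CPM in CL, and 159.8 and 166 CPM in RT. Both COLD pools were thus far above every other pool, and both CL pools were below both RT pools. The difference between COLD and CL was 2.72 ± 0.32 (log2, SE; edgeR adjusted p = 0.0432), or 6.58-fold. Ifit3, an interferon-induced antiviral protein, lay at 279 and 377 CPM in COLD, 78.8 and 72.8 CPM in CL and 42.9 and 41.6 CPM in RT. Here CL lay above RT and COLD far above both, and the difference between COLD and CL was 2.11 ± 0.23 (adjusted p = 0.0432, edgeR). Its neighbour Ifit3b had the same order, with 54.5 and 67.2 CPM in COLD against 12.8 and 11.1 CPM in CL (log2 difference 2.35 ± 0.20, adjusted p = 0.0288, edgeR). The paralogs are close in sequence, so some reads may not have been assignable to either. Ifi44, another interferon-induced gene, was near absent in RT (0.802 and 0.808 CPM), reached 12.6 and 5.29 CPM in CL and stood at 53.4 and 64.7 CPM in COLD, a difference of 2.75 ± 0.37 (adjusted p = 0.045, edgeR). Batf2, an interferon-induced transcription factor, was at 9.97 and 11.5 CPM in COLD and at 3.29 and 3.25 CPM in CL, below the RT range of 5.22 to 6.06 CPM.

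**Figure D1:**
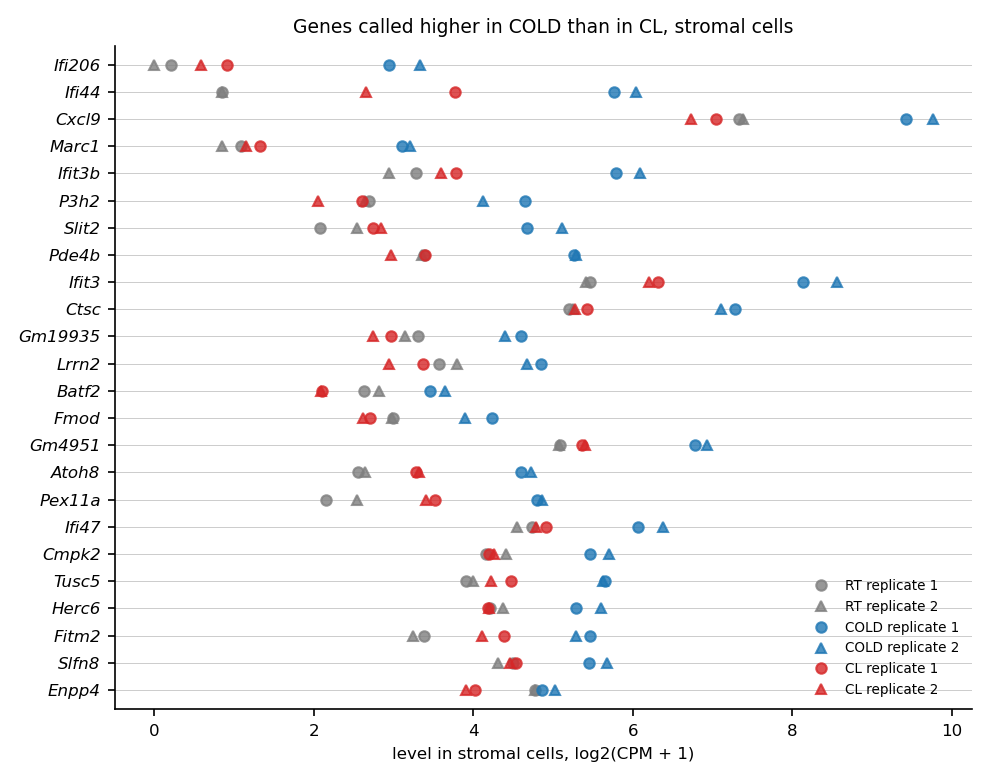
Levels of the 24 genes called higher in COLD, in stromal cells. Each row is a gene, each point a library (circle, replicate 1; triangle, replicate 2), and the horizontal axis is log2(CPM + 1). The COLD pools lie to the right of the CL pools in every row, and for Cxcl9, P3h2, Gm19935, Lrrn2, Batf2, Fmod, Herc6 and Enpp4 the CL pools lie to the left of the RT pools.

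Ifi47, an interferon-inducible GTPase of the interferon list, also passed on the COLD side (1.41 ± 0.17, edgeR adjusted p = 0.0442). Named after their values were seen, 5 genes outside the list that passed there are, like Batf2, known as interferon-inducible: Ifi206, Cmpk2, Herc6, Slfn8 and Gm4951. Their log2 differences lay between 1.11 for Slfn8 and 3.55 for Ifi206, a gene that was almost undetected in RT. This and the other lists were chosen with earlier results of these data known, which favours an excess over all genes. Among the 34 genes of the interferon list, 5 passed on the COLD side and 0 on the CL side, against 0.17% and 0.248% of all genes. At an unadjusted p under 0.05 the counts were 27 and 0, where 7.7% and 7.92% of all genes reached that level. The COLD and CL pools did not overlap, with COLD higher, for 29 members (23.8% of all genes), and for no member was CL higher. The list's median log2 difference was 1.05, against -0.01 over all genes tested, and it stayed between 1.03 and 1.20 under other scalings, with the block, with cells thinned and without cycling cells, Cthrc1 cells or ASC2 and ASC3 marker cells. Against RT, the list's median was 1.78 in COLD, where 25 members passed as higher (3.86% of all genes), and 0.60 in CL, where 1 did (0.078%). These contrasts share the RT libraries. The immune markers given above were higher in the COLD than in the CL pools, as were the interferon genes, and their part in the result was not tested. Of the 9 immune markers of 12 that could be tested, 0 passed by edgeR and 1 had an unadjusted p under 0.05. The interferon gene that passed in CL against RT was Irf7, the master transcription factor of the type I response, with 375 and 440.1 CPM in COLD, 204 and 129.8 CPM in CL, and 34.3 and 29.3 CPM in RT. The order of Irf7 was COLD, then CL, then RT, but its difference between COLD and CL did not pass (1.29 ± 0.29, edgeR adjusted p = 0.0966).

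The stretches upstream of the start site of 4 called interferon genes are shown because their letters match the interferon-stimulated response element. STAT and IRF factors bind that element, but binding at these matches was not measured. The search was for GAAANNGAAA or its reverse TTTCNNTTTC in the 250 bases before each RefSeq start (GRCm38.p6), which covers both strands, and the capitals mark the matches. Each is written 5′ to 3′ on the strand of the gene. Ifit3 lies at chr19:34583365-34583424 (+), Ifit3b at chr19:34607761-34607820 (+), Ifi206 at chr1:173491324-173491383 (-) and Slfn8 at chr11:83020824-83020883 (-).
Ifit3: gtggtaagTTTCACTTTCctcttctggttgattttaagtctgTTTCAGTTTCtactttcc
Ifit3b: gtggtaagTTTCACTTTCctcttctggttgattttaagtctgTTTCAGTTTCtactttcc
Ifi206: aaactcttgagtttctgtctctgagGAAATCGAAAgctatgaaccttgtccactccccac
Slfn8: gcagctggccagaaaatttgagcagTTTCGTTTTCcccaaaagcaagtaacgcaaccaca
The Ifit3 and Ifit3b windows are identical and hold 2 matches each, which shows how alike these neighbours are. Of the 34 genes of the interferon list, 26 had an entry and 14 of them held a match (53.8%), against 936 of 27025 genes in all (3.46%). Among genes called higher in COLD, 4 of 19 with an entry held one (21.1%), and among genes called higher in CL, 0 of 25 did. No match says only that these letters are not in this window.

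Interferon also raises antigen presentation, and class I and II genes were next examined. None of the 13 genes of the MHC list that were tested passed, but all 13 had COLD pools above CL pools (23.8% of all genes), and 8 reached an unadjusted p under 0.05 on that side (7.7% of all genes). The list's median was 1.13 for COLD minus CL, 1.25 for COLD minus RT and -0.01 for CL minus RT. H2-Q7, a nonclassical class I gene, lay at 435 and 429 CPM in COLD, 125 and 58.9 CPM in CL, and 134 and 73.3 CPM in RT (2.24 ± 0.44, adjusted p = 0.0741, edgeR). CL overlapped RT and COLD stood above both. H2-Q6 and H2-Q7 are close paralogs, and some of their reads may not have been assignable to either. The list's median was lower without cells that carry Cthrc1 or Lrrc15 (0.56) and without those that carry Pi16, Dpp4 or Gdf10 (0.59).

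Other genes on the COLD side act in cAMP breakdown, guidance, lysosomes and matrix. Pde4b, which encodes a phosphodiesterase that breaks down cAMP, was at 37.5 and 38.0 CPM in COLD, 9.52 and 6.83 CPM in CL, and 9.47 and 9.29 CPM in RT. Only the COLD pools left the RT level, by 2.01 against RT (edgeR adjusted p = 0.00824) and by 2.22 ± 0.20 against CL (edgeR adjusted p = 0.0288). Slit2, a secreted guidance ligand of Robo receptors, was at 24.4 and 33.6 CPM in COLD, 5.69 and 6.17 CPM in CL, and 3.21 and 4.85 CPM in RT. The groups did not overlap, and COLD exceeded CL by 2.29 ± 0.25 (adjusted p = 0.0432, edgeR). Ctsc, the lysosomal protease cathepsin C, was at 155 and 136 CPM in COLD, 42.2 and 37.6 CPM in CL, and 35.6 and 37.2 CPM in RT, a difference of 1.87 ± 0.16 (adjusted p = 0.0288, edgeR). P3h2, a collagen prolyl hydroxylase, and Fmod, the collagen-binding proteoglycan fibromodulin, exceeded CL by 2.32 ± 0.31 and 1.57 ± 0.22. Lrrn2 and Gm19935 exceeded it by 1.71 ± 0.22 and 1.80 ± 0.20, and both lay lower in the CL pools than in the RT pools.

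On the CL side, the largest difference belonged to H19, an imprinted long noncoding RNA of growing tissues. Its level was 285 and 90.5 CPM in CL, 12.6 and 9.79 CPM in COLD, and 14.4 and 11.9 CPM in RT. Both CL pools stood far above the rest, and the range of COLD overlapped that of RT. The difference between COLD and CL was -4.07 ± 0.53 (adjusted p = 0.045, edgeR), or 16.7-fold, although CL against RT did not pass (3.82, adjusted p = 0.0512, edgeR). Rtl3, a gene derived from a retrotransposon, was at 29.4 and 21.8 CPM in CL, 2.76 and 3.92 CPM in COLD, and 9.31 and 8.08 CPM in RT. Here CL lay above RT and COLD below it (-2.93 ± 0.26 between COLD and CL, adjusted p = 0.0288, edgeR). AA467197 and 1500015O10Rik resembled H19 in that COLD lay within 1 log2 unit of RT, and they differed between COLD and CL by -2.60 ± 0.31 and -2.44 ± 0.33.

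Genes of Wnt signalling made up part of the CL side. Sfrp2, a secreted modulator of Wnt ligands, was at 1090 and 779 CPM in CL, 121 and 163 CPM in COLD, and 483 and 519.8 CPM in RT. COLD pools lay under the RT range and CL pools over it, and the difference was -2.72 ± 0.39 (adjusted p = 0.0476, edgeR). The ligand Wnt2 had the same order, with 52.2 and 47.4 CPM in CL, 7.45 and 14.6 CPM in COLD, and 25.9 and 24.0 CPM in RT (-2.17 ± 0.30, adjusted p = 0.0463, edgeR). Of 32 tested genes of the BMP, TGF-beta and Wnt list, these 2 passed on the CL side (0.248% of all genes) and 0 on the COLD side (0.17%). At an unadjusted p under 0.05, 15 were higher in CL and 3 in COLD, against 7.92% and 7.7% of all genes, and the list's median was -0.90 (-0.58 after thinning and -0.59 without cells that carry Cthrc1 or Lrrc15). Its medians against RT were -0.85 in COLD and -0.15 in CL. The Wnt antagonist Dkk2, which did not pass (adjusted p = 0.0598, edgeR), was at 4.10 and 6.56 CPM in COLD, 19.3 and 45.7 CPM in CL, and 36.7 and 33.1 CPM in RT. The Dkk2 values of CL spanned the RT range, and COLD lay below it.

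**Figure D2:**
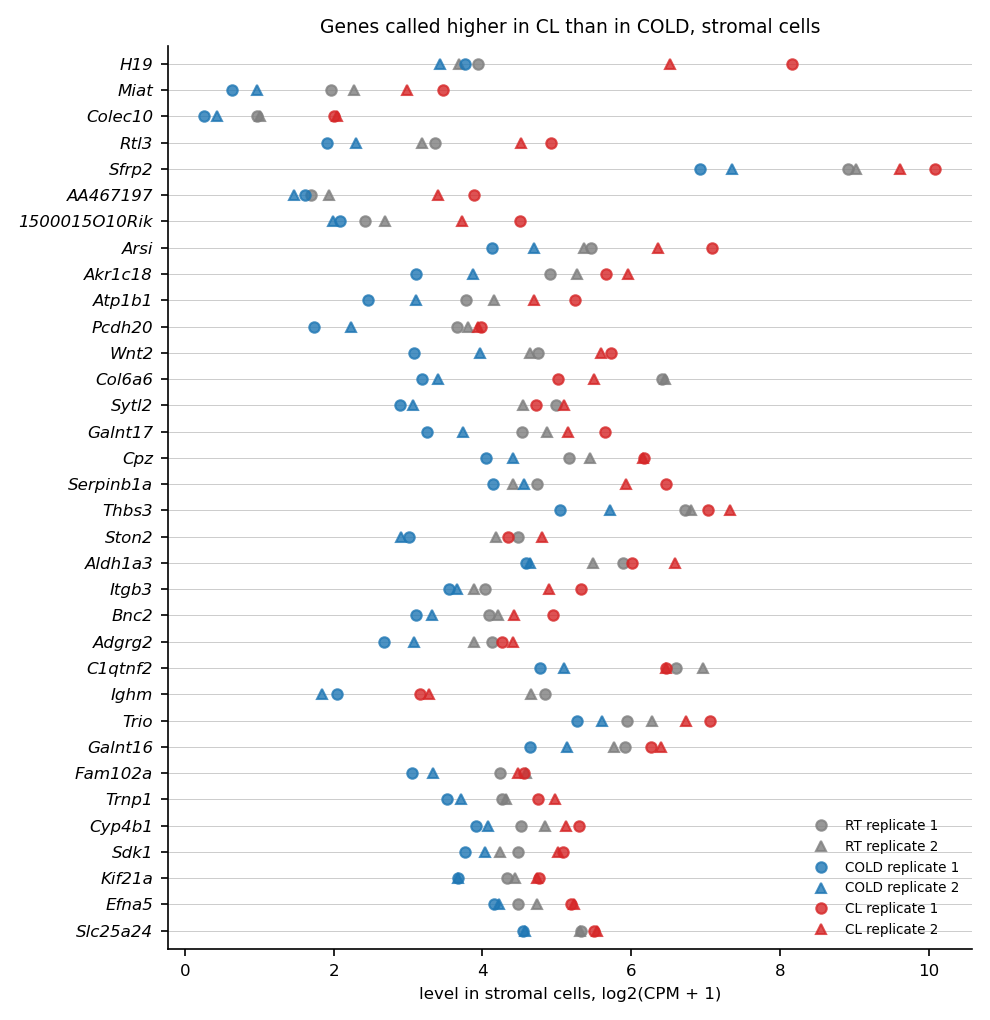
Levels of 34 of the 35 genes called higher in CL, in stromal cells, drawn as for the COLD side. In 26 of the 34 rows the COLD pools lie to the left of both RT pools and the CL pools to the right of both. The genes had been selected for a difference between COLD and CL, which favours this order.

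Single genes that act on retinoids, steroids and matrix also stood on the CL side. Of 19 tested genes of the retinoid and lipid transport list, 1 passed there (0.248% of all genes) and 0 on the COLD side (0.17%). At an unadjusted p under 0.05 by edgeR, 4 were higher in COLD and 3 in CL (7.7% and 7.92% of all genes), with a list median of -0.23. Aldh1a3, an enzyme that makes retinoic acid, was at 63.5 and 95.6 CPM in CL, 23.05 and 23.8 CPM in COLD, and 58.5 and 43.6 CPM in RT (-1.76 ± 0.24, edgeR adjusted p = 0.0463). Akr1c18, an enzyme that inactivates progesterone, differed by -2.38 ± 0.30, and Arsi, a sulfatase, by -2.39 ± 0.30. Col6a6, a chain of collagen VI, fell in COLD to 8.14 and 9.53 CPM from 84.3 and 86.6 CPM in RT (-3.27, adjusted p = 0.00514, edgeR), and lay in between in CL at 31.4 and 44.5 CPM. Atp1b1, a subunit of the sodium pump, Pcdh20, a protocadherin, and Sytl2, a regulator of vesicle transport, differed by -2.34 ± 0.32, -2.26 ± 0.27 and -2.08 ± 0.22. In Pcdh20 and Sytl2 the CL pools were near RT and the COLD pools below it.

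Each called gene was then placed against RT, with the same COLD and CL pools that had called it. Selection for a difference between COLD and CL favours a pass against RT. Not passing does not show an unchanged level: Ifi44 did not pass in CL against RT at a log2 difference of 3.44 (adjusted p = 0.065, edgeR). Of the 24 genes on the COLD side, 22 passed against RT in COLD with CL not passing, and for the other 2, Batf2 and Enpp4, neither contrast passed. By library ranges, COLD lay above RT for all 24, whereas CL lay above RT for 13, below it for 8 and overlapped it for 3. Of the 35 genes on the CL side, 20 passed as lower in COLD than in RT with CL not passing, 14 passed in neither contrast, and 1, the immunoglobulin gene Ighm, was lower in both. None of the 35 passed as higher in CL than in RT in this edgeR fit, which has no replicate block. By library ranges, 27 had COLD below RT and CL above RT. The share of all genes with such orders of library ranges was not measured. The called genes had been selected for a difference between COLD and CL, which favours these orders. Over all genes, 920 passed in COLD against RT (6.52%, 3.86% higher and 2.67% lower) and 28 in CL against RT (0.199%, 0.078% higher and 0.121% lower), and these contrasts share the RT pools. With the replicate block the counts were 2060 for COLD and 288 for CL. Without either RT pool both counts were 0. For COLD against RT the count was 51 without COLD replicate 1, 62 without COLD replicate 2, 2306 without CL replicate 1 and 2270 without CL replicate 2. For CL against RT it was 13, 2, 71 and 1164 without the same 4 libraries. No gene passed against RT in opposite directions in COLD and in CL.

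**Figure D3:**
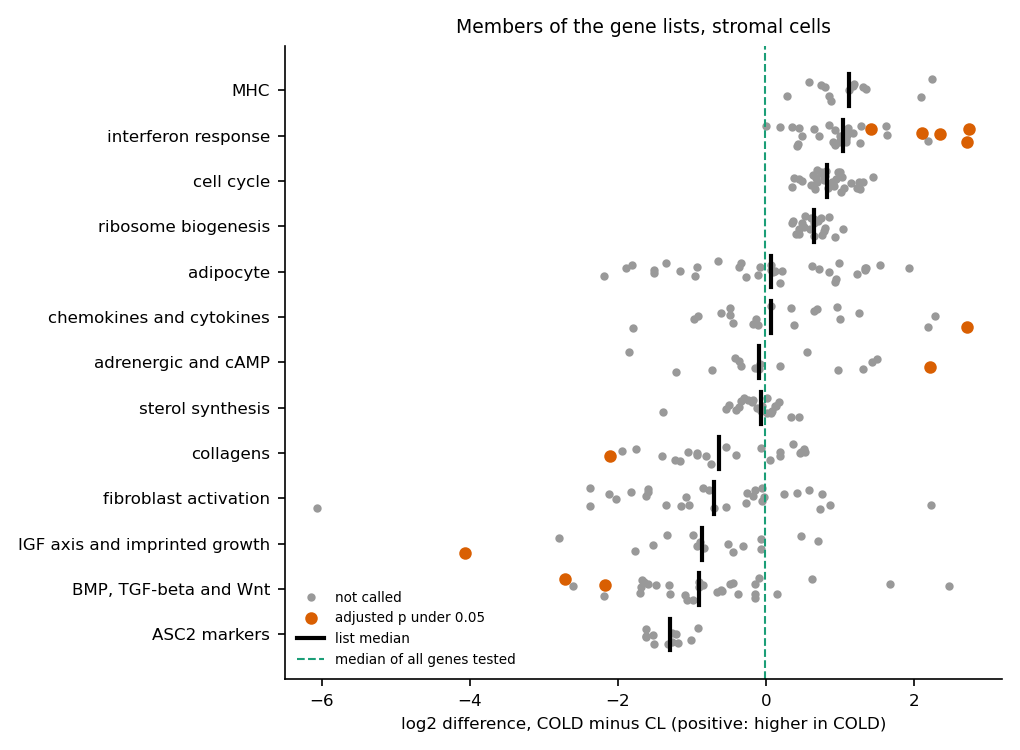
Log2 differences between COLD and CL for the members of 13 gene lists in stromal cells. Each grey point is a gene that did not pass and each orange point one that did, black bars are list medians, and the dashed line is the median of all genes. The MHC, interferon, cell cycle and ribosome biogenesis medians lie to the right, and those of ASC2 markers and of BMP, TGF-beta and Wnt genes lie farthest to the left.

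No gene passed in the lists of ribosome biogenesis and the cell cycle. Of 21 genes of ribosome biogenesis, which build the ribosomal subunits in the nucleolus, 19 had COLD pools above CL pools (23.8% of all genes) and 15 reached an unadjusted p under 0.05 (7.7%), with a median of 0.64. Dkc1, the pseudouridine synthase of snoRNPs, was at 68.7 and 59.8 CPM in COLD, 27.1 and 35.1 CPM in CL, and 31.4 and 38.2 CPM in RT (1.04 ± 0.19, adjusted p = 0.0661, edgeR). All 34 cell cycle genes had a positive difference, between 0.35 and 1.45, but 4 reached an unadjusted p under 0.05 (7.7% of all genes). Pools overlapped for 20 of them, in each of which CL replicate 1 exceeded the lower COLD pool. Within each replicate number the summed level was higher in COLD, at 2551 against 1974 CPM and 1855 against 564 CPM. The list's median was 0.83, and 1.16 with the replicate block. Top2a, the topoisomerase of dividing cells, lay at 131 and 73.0 CPM in COLD, 67.5 and 17.8 CPM in CL, and 9.15 and 0.202 CPM in RT. COLD pools were higher, but the difference did not pass (1.26 ± 0.84, edgeR adjusted p = 0.529).

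Matrix and progenitor lists had negative medians. All 12 markers of ASC2, the Pi16+ and Dpp4+ progenitor-like stromal cells, had a negative difference, 10 of them at an unadjusted p under 0.05 (7.92% of all genes), and the median was -1.30 (-0.79 after thinning). Against RT the median was -1.11 in COLD and 0.14 in CL. Dpp4 was at 144 and 191 CPM in CL, 63.8 and 75.7 CPM in COLD, and 136 and 140.0 CPM in RT (-1.27 ± 0.21, adjusted p = 0.0598, edgeR). For Dpp4, CL lay above RT and COLD below it. Of 22 collagens, Col6a6 passed on the CL side (0.248% of all genes), 14 had CL pools above COLD pools (23.5% of all genes) and 6 had COLD pools above CL pools (23.8%), with a list median of -0.64, and for fibroblast activation the median was -0.70 with 0 of 31 that passed. Against RT, 6 fibroblast activation genes passed as higher in COLD (3.86% of all genes) and 0 in CL (0.078%), with list medians of 0.36 and 1.03. The medians between COLD and CL were smaller in size under some settings, at -0.39 for collagens without cycling cells and, for fibroblast activation, at -0.39 without Cthrc1 or Lrrc15 cells and -0.45 after thinning. Cthrc1, a secreted marker of activated fibroblasts, was at 1280 and 219 CPM in CL, 138 and 151 CPM in COLD, and 13.5 and 21.0 CPM in RT (-2.38 ± 0.74, adjusted p = 0.188, edgeR). CL replicate 1 lay far above CL replicate 2, which was closer to the COLD pools than to the other CL pool. The list of IGF axis and imprinted growth genes had a median of -0.87, and after H19 the member nearest the threshold was Cdkn1c, a cell cycle inhibitor (-1.53 ± 0.23, adjusted p = 0.0516, edgeR).

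Adipocyte genes divided between the stimuli. Of 33 tested, 0 passed, and at an unadjusted p under 0.05 there were 9 higher in COLD and 6 higher in CL (7.7% and 7.92% of all genes), with a median of 0.07 that turned to -0.20 after thinning and to -0.18 without cycling cells. Fabp4, a fatty acid carrier of adipocytes that is also among the endothelial markers used here, was at 2708 and 1987 CPM in COLD. It was at 383 and 847 CPM in CL, and 110.2 and 93.5 CPM in RT. The thermogenic gene Ucp1 had the opposite order, with 13.4 and 10.2 CPM in COLD, 59.2 and 28.6 CPM in CL, and 0.321 and 1.62 CPM in RT. In both, COLD and CL did not overlap, but neither passed (adjusted p = 0.169 and 0.102, edgeR). The adipocyte list, which shares Fabp4 with the endothelial markers, had a higher summed level in endothelial cells. It was at 56034 and 55966.5 CPM in COLD and 51160 and 38437 CPM in CL. The part of Fabp4 in that sum was not measured. In stromal cells the adipocyte sums were 9698 and 7805 CPM in COLD and 3273 and 3916 CPM in CL. Over all Lin- cells they were 22708 and 14534 CPM in COLD and 23218 and 6982 CPM in CL, with a list median of -0.47. The groups thus overlapped there. The authors' correction for cell-free RNA was set on Fabp4 and Car3. The part of RNA from adipocytes or endothelial cells in these levels was not tested. Of adrenergic genes, the receptor Adrb1 lay at 7.25 and 7.76 CPM in COLD, 2.76 and 2.81 CPM in CL, and 2.17 and 2.83 CPM in RT (1.43 ± 0.27, edgeR adjusted p = 0.0712). Adrb3, the receptor of CL, was low throughout, at 13.9 and 5.09 CPM in COLD, 4.54 and 2.26 CPM in CL, and 0.160 and 0.606 CPM in RT. COLD pools were higher for both receptors, and the difference in Adrb3 did not pass (1.504 ± 0.579, adjusted p = 0.272, edgeR). Of 23 sterol synthesis genes, 17 fell in COLD (2.67% of all genes) and 4 in CL (0.121%) against RT. The list's medians against RT were close, at -1.84 in COLD and -1.78 in CL, and the median between COLD and CL was -0.07 (0.10 when scaled by library totals).

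The share of cells behind these sums was measured after each cell was thinned to 1000 counts. At least 3 counts of 12 interferon genes were found in 64.8% and 73.7% of stromal cells in COLD, 47.0% and 35.7% in CL, and 19.6% and 16.8% in RT. COLD was above CL by 27.9 percentage points, and the groups did not overlap. In endothelial cells of the same libraries, the values were 63.3% and 56.2% in COLD, 49.1% and 27.5% in CL, and 34.1% and 35.9% in RT, so only COLD exceeded RT in both pools. Pi16 or Dpp4 was detected in 22.0% and 22.3% of stromal cells in COLD and in 34.0% and 42.0% in CL. The RT values were 35.5% and 26.4%, both above COLD and overlapping CL. The endothelial background was at most 3.91%. Adipocyte genes (3 counts of Adipoq, Car3, Plin1, Plin4 and Cidec) marked 7.34% and 3.64% in COLD, 1.87% and 1.03% in CL, and 0.0595% and 0.0462% in RT, against 0.386% to 2.44% of endothelial cells. Within CL replicate 1 the stromal share was below the endothelial share of 2.44%, and within CL replicate 2 it was above that of 0.562%. Car3, on which the correction for cell-free RNA was set, had the highest level of these adipocyte genes. It was at 1496 and 606 CPM in stromal cells of COLD and 292 and 434 CPM in those of CL. Cidec alone had a negative difference (-1.52 ± 0.74). A share without Car3 was not measured. The stromal gate asks for Pdgfra, Col1a1 and Dcn, and the study reports that Pdgfra and Dcn are lost as cells differentiate. Cells past that point may lie outside the gate, and their share was not measured. With 2 pools against 2, the exact permutation test cannot go below p = 0.333, which is the value for each of these 3 shares (two-sided).

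**Figure D4:**
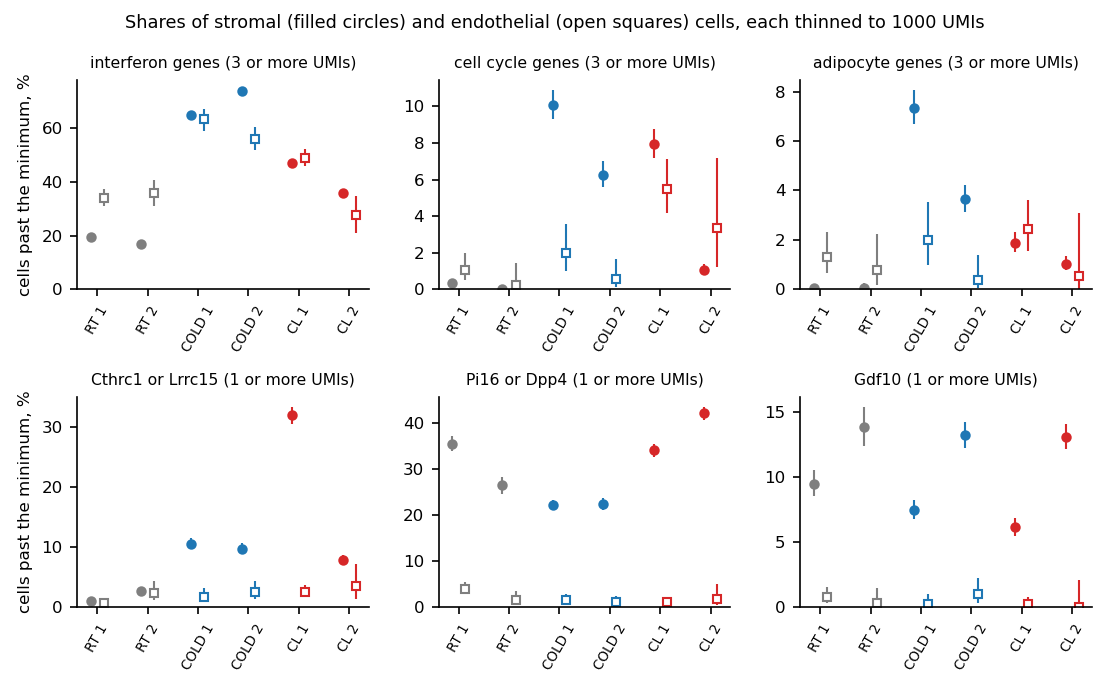
Percentage of cells past the stated minimum of counts in each library after thinning to 1000 counts, for stromal (filled circles) and endothelial cells (open squares). Bars are exact 95% binomial intervals, which cover counting error only. Interferon shares are highest in COLD in stromal cells, and the Cthrc1 share of CL replicate 1, 31.9%, stands apart from that of CL replicate 2, 7.85%.

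The CL pools differed from each other. Cells with Cthrc1 or Lrrc15 made up 31.9% and 7.85% of stromal cells in CL, 10.5% and 9.64% in COLD, and 0.982% and 2.54% in RT. Cycling cells made up 7.95% and 1.05% in CL, 10.1% and 6.27% in COLD, and 0.327% in RT replicate 1, and in RT replicate 2 there were 0 of 2163 cells, which allows a share of up to 0.139% (3 counts of the cells tested). For both programmes the groups overlapped (exact permutation p = 1 and 0.667), in a test that does not pair pools by replicate number. Within each replicate number the cycling share was higher in COLD, whereas the Cthrc1 share was higher in CL for replicate 1 and in COLD for replicate 2. Stromal cells were 62.0% and 68.2% of kept cells in COLD and 49.4% and 83.8% in CL, endothelial cells 7.36% and 8.04% in COLD and 13.7% and 3.03% in CL. Without thinning, a larger number of cells carried Cthrc1 or Lrrc15, namely 1877 of 4852 and 1000 of 5173 stromal cells in CL and 1371 of 5770 and 1353 of 4569 in COLD. Leaving these out left 0 genes past the threshold (smallest adjusted p = 0.0608, 1761 genes at an unadjusted p under 0.05, edgeR). Without them, the log2 difference was 2.20 for Cxcl9, 1.97 for Pde4b, -2.78 for H19 and -1.51 for Sfrp2.

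Over all Lin- cells, in which fewer cells of a type and less RNA per cell cannot be told apart, 0 of 15307 genes passed by edgeR, 1708 had an unadjusted p under 0.05 (11.2%), and 349 passed by DESeq2. Leaving out CL replicate 1 gave 1096 genes and leaving out CL replicate 2 gave 652. The interferon list kept a median of 0.91, with 30 of 34 members not overlapping and higher in COLD (20.1% of all genes). In endothelial cells, 0 of 10299 genes passed by edgeR, 627 had an unadjusted p under 0.05 (6.09%) and 10 passed by DESeq2. CL replicate 2 gave only 187 endothelial cells, and 35 genes passed without it. The interferon list had a median of 0.74 there and the MHC list 0.08.

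The difference between COLD and CL was itself compared between stromal and endothelial cells, with 96 of 12657 genes past the threshold (0.758%), 44 with a larger value in stromal cells (0.348%) and 52 with a smaller one (0.411%). Cxcl9 was among the 44. Its endothelial level was 111 and 158 CPM in COLD and 128 and 77.3 CPM in CL, and the class difference was 2.34 ± 0.28 (adjusted p = 0.00956, edgeR). Ifi44 and H2-Q7 also had larger values in stromal cells, by 1.67 ± 0.27 and 2.75 ± 0.29, whereas Pde4b differed by 2.20 ± 0.23 and was flat in endothelial cells (0.01). Of 34 interferon genes, 2 passed as larger in stromal cells and 0 as smaller, with a median class difference of 0.37. The cell cycle list had 12 of 34 genes that passed as larger in stromal cells, with list medians of 0.83 in stromal and -1.30 in endothelial cells. Leaving out COLD replicate 1 or COLD replicate 2 left 1 gene, leaving out RT replicate 1 left 42, and leaving out CL replicate 1 or CL replicate 2 gave 393 and 942.

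The called genes, but not all lists and shares, had the same order in cold pools that the contrast had not used. They were the WT and KO pools of the Adrb1 line, 1 each after 4 days at 6 °C, made with the same kit version and holding 4509 and 2799 stromal cells. Sex and genotype differ from C57, and the CL pools are the same as above. All 24 genes of the COLD side lay above both CL pools in WT and in KO, and all 35 of the CL side lay below both. Of all genes with non-overlapping C57 pools, 61.2% on the COLD side and 62.0% on the CL side did so. These genes were not matched to the called genes in the size of the difference. Both sets were selected against the same CL pools, so this is no independent replication. Cxcl9 was at 312 CPM in WT and 559 CPM in KO, against 131 and 104 CPM in CL on the scale of these 8 libraries, and Sfrp2 was at 132 and 137 CPM against 1085 and 776 CPM. Over all 14104 genes, 4661 lay above and 4489 below both CL pools in WT, and 4524 above and 4434 below in KO. The interferon list differed between the pools, with 17 of 34 members above both CL pools and 3 below in WT, and 33 above and 0 below in KO. The share of interferon-positive stromal cells was 36.3% in WT, inside the CL range, and 57.5% in KO, above it. Of the 13 MHC genes, 2 lay above and 6 below both CL pools in WT, and 7 above and 3 below in KO. Cell cycle genes lay above both CL pools for 15 of 34 in WT and 3 in KO, with 0 below in either. Of 33 adipocyte genes, 22 lay below both CL pools in WT and in KO, against 7 in C57 COLD, and adipocyte-positive cells were 0.621% and 0.366% of stromal cells, below both CL shares. With 1 pool each, these differences have no replicate check.

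**Figure D5:**
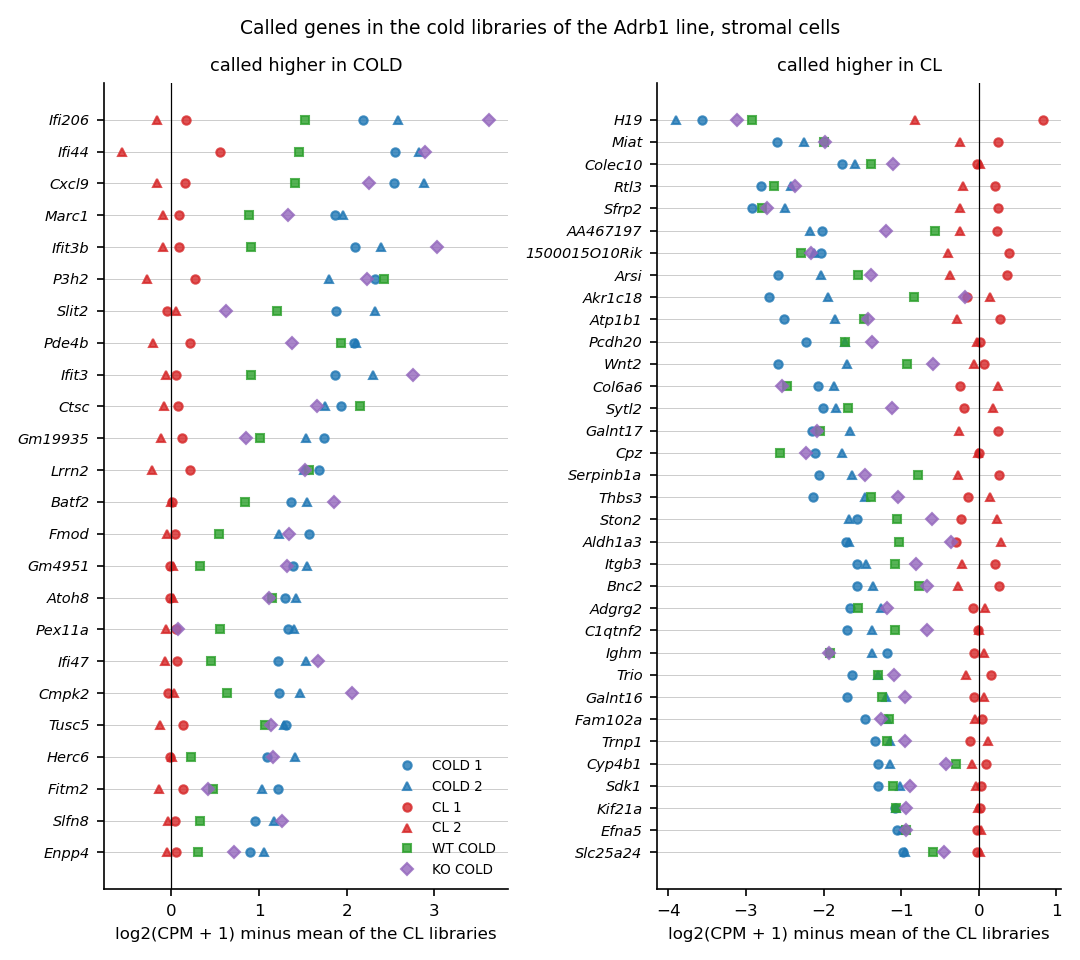
Levels of 58 of the 59 called genes in the COLD, CL, WT COLD and KO COLD libraries, as log2(CPM + 1) minus the mean of the CL libraries, with 24 genes called higher in COLD on the left and 34 called higher in CL on the right. WT and KO points lie on the COLD side of both CL points in every row.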

How the data were processed

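Barcode matrices of 8 Lin- libraries were used, and the deposited values are estimated counts: UMI counts made by the authors with Cell Ranger 3.0.1 on mm10, per the labels, and corrected for cell-free RNA with SoupX, so that 97.2% to 99.6% of entries were not whole. For each library and class of cells, corrected counts were added up, rounded and tested with edgeR 4.0.16 in R 4.3.3 (TMM, filterByExpr, glmQLFit, glmQLFTest, two-sided, Benjamini-Hochberg over all genes) over the 6 C57 Lin- libraries, RT included, so that 3 groups share a spread. Endothelial cells had a sum of Pecam1 and Cdh5 of at least 2, the stromal sum under 2 and Ptprc under 1. The class difference used a class by treatment term with the library as a block. The study's methods describe libraries of a number as 1 replicate experiment. Their deviations correlated at 0.24 for RT and COLD, 0.48 for COLD and CL and -0.10 for RT and CL. Doublets were kept, and an alternative removed the top 6% of Scrublet scores (scanpy 1.11.5). A single count lowered by the correction is below 1, so the gates pass some cells with 1 read of an excluded gene. For thinning, entries were rounded, and 116 to 296 stromal cells per COLD or CL library were too shallow. In simulated stromal counts, 95% of 4-fold and 45% of 2-fold changes were recovered over 13807 genes with 11 false calls. For the class term, 52% and 6% were recovered over 12606 genes with 3 false calls. The simulated spread followed the trend over all genes, so these rates do not hold for genes or pools that vary more. Named genes passed the threshold, had COLD and CL pools that did not overlap and a mean of at least 5 CPM (the 12 largest in each direction, 2 per list and direction, and 4 per direction for the class term). Members and the 33 lists were chosen with earlier results of these data known. Differences are log2 values from the fit, ± SE. Pools are treated as separate replicates. The result for 1 called gene is not reported here.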

Additional observations from a re-analysis of the deposited data

Results flagged for a closer look

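The response to COLD against CL differed between stromal and endothelial cells for 96 genes by the class by treatment term (edgeR's quasi-likelihood test, adjusted p under 0.05). Among those with stromal pools that did not overlap and at least 5 CPM, the 4 largest in each direction are given as the stromal minus the endothelial log2 difference. Larger in stromal cells were the cell division genes Nusap1 (3.75), Pimreg (3.70) and Top2a (3.27). Ccl5, a chemokine for T cells, has a fitted value of 5.58, but it was too low in endothelial cells to pass the filter there, so this value is no measured difference between the classes (the stromal difference alone was 2.77). Top2a stood at 60.9 and 47.4 CPM in endothelial cells of CL and 17.1 and 9.84 CPM in those of COLD, while stromal cells had the opposite order. Smaller in stromal cells were Dlk1 (-5.47), a marker of preadipocytes, Atp1b1 (-4.02), Efnb2 (-3.13), a ligand of Eph receptors typical of arteries, and Ighm (-2.77). Dlk1 in stromal cells was at 4.64 and 2.59 CPM in COLD, 32.2 and 18.1 CPM in CL, and 91.2 and 46.0 CPM in RT. In endothelial cells it was at 25.2 and 57.7 CPM in COLD and 6.32 and 10.5 CPM in CL, so the order turned. The part of stromal RNA in endothelial cells was not tested.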

How the results depend on the processing

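The 26 named genes kept their sign under all 24 alternatives, but they had been chosen for pools that did not overlap. Their calls were not kept. All 26 failed the threshold in the COLD and CL libraries alone and without Cthrc1 or Lrrc15 cells. After thinning 21 failed it, and without Pi16, Dpp4 or Gdf10 cells 22 did. Sizes also moved, with Wnt2 between -3.72 and -0.85 and Fmod between 0.69 and 1.76. For stromal cells, 401 genes passed with the replicate block, 474 with the block in the COLD and CL libraries alone, 0 in those libraries without it, 287 with library totals, 1495 without filterByExpr and 566 by DESeq2. The count was 18 with a gate of 10, 39 without Col1a1 in the gate, 32 with rounded entries, 125 without top Scrublet scores, 95 without cycling cells, 0 without Cthrc1 or Lrrc15 cells, 9 without Pi16, Dpp4 or Gdf10 cells and 7 after thinning. Leaving out a library gave 0 to 869. Over all Lin- cells, library totals gave 196, DESeq2 349 and left-out libraries 0 to 1096, with 0 under the replicate block. In endothelial cells, no filterByExpr gave 172, DESeq2 10 and left-out libraries 0 to 35. Against RT, COLD gave 2060 with the block, 1549 by DESeq2 and 0 to 2306 with a library left out, and CL gave 288, 521 and 0 to 1164. The class term gave 714 without filterByExpr, 47 in the COLD and CL libraries alone and 1 to 942 with a library left out. Shares are COLD minus CL in percentage points. With over 100 genes per cell, the stromal difference turned from -1.48 to 2.06 and the endothelial from -0.69 to 0.053. With a library left out, these ran from -18.7 to 15.7 and from -6.04 to 4.67, the Cthrc1 difference from -21.8 to 2.24 and that of Gdf10 from -2.75 to 4.22. The rounded gate, the block without RT, the alternatives against RT and the removal of Pi16, Dpp4 or Gdf10 cells were chosen after seeing the data.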
